A study of Mus musculus with 6 samples.

Results

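The 34 genes described here encode the acute phase response of the mouse liver and the cytokine signalling that drives it. They are 18 acute phase proteins, 6 receptors and receptor antagonists, 6 signalling and transcription genes, and 4 chemokine and adhesion genes. Open chromatin at these genes was taken from 6 ATAC-seq peak lists, where ATAC-seq maps open DNA through the sites at which the transposase Tn5 inserts. Peaks on chromosomes 1 to 19 and X (mm10) that shared at least 1 bp were merged into regions, and each region was assigned to the protein-coding RefSeq gene span (GRCm38.p6) nearest to its midpoint within 50 kb. This gave 269 of 109853 regions, at 33 of the 34 genes, and Cxcl10 had none. Nearness alone places a region at a gene and does not show that the region acts on it. The dKO group (double knockout, 3 libraries) came from male mice with floxed alleles of Ncor1, which encodes the nuclear receptor corepressor NCOR1, and of a further gene, given AAV-Cre, an adeno-associated virus carrying Cre recombinase. The control group (3 libraries) came from male mice with the same floxed alleles given AAV-eGFP. Both groups thus carried the floxed alleles and a virus. All livers were collected on day 5 after the virus at zeitgeber time 10, and nuclei positive for HNF4a, a transcription factor of hepatocytes, were sorted for Omni-ATAC, an ATAC-seq protocol for nuclei. The sources used here do not give the strain, the age, the promoter that drives Cre or the floxed exons, so the peak lists do not check the deletion. Nor do they say whether the 3 libraries of a group are separate animals, so every p-value below rests on a spread among libraries that may be technical.

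The acute phase response is the change in plasma protein production by hepatocytes during inflammation or injury. Interleukin 6 acts through its receptor and gp130 on STAT3, while interleukin 1 and tumour necrosis factor act through NF-kB, and both arms induce C/EBP transcription factors at acute phase genes. Glucocorticoids enhance many of these genes in liver, and SOCS3, I-kappa-B alpha and A20 act as feedback inhibitors. The study's title concerns nuclear receptor corepressors and the glucocorticoid receptor in hepatic gluconeogenesis, and the comparison of dKO with control nuclei asks where chromatin accessibility differed.

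The dKO lists held 71473 to 84614 peaks and the control lists 68316 to 83371, and the acute phase and cytokine genes had a peak in 168 to 208 regions per dKO library and in 153 to 205 per control library. Values are normalized tag counts, the tags in a peak scaled to library depth by the authors (here "normalized tags"). Their median over regions with a peak in all 6 libraries (shared regions) was 15.6, 13.5 and 17.4 in dKO 1 to 3. It was 16, 16.1 and 16.3 in control 1 to 3. Normalized tags of single regions are compared as listed, while fold changes and p come from values centred on the library medians. Each list has a single peak width, which was narrower in dKO 1, dKO 2 and control 1 (the narrow-peak libraries) than in dKO 3, control 2 and control 3 (the wide-peak libraries), and results are also given within each of these sets. Of the dKO libraries, dKO 3 lay nearest the controls. It is also the only wide-peak dKO library, so a part of peak width in its position cannot be told apart. Over the shared regions of these genes, its median deviation from the control mean was -0.15 on the log2 scale, against -0.39 in dKO 1 and -0.28 in dKO 2. Hepatocyte markers carried most of the marker signal: their summed value was 1253 to 1364 normalized tags in dKO and 1374 to 2183 in control (exact permutation test, 2-sided, p = 0.1, the smallest possible, adjusted p = 0.7 over 7 lists). All 8 hepatocyte marker genes had a peak, and 14 of their 33 shared regions were lower in dKO and 0 higher by limma. The share of lower regions was thus 42.4% at these markers, where 11.6% of all shared regions were lower and 8.19% higher. All 7 endothelial markers had a peak, and they summed to 385.1 to 560.9 in dKO and 437.7 to 552.4 in control. Kupffer cell markers summed to 24.3 to 52.3 in dKO and 36.1 to 41.4 in control, with no peak at Timd4 and Vsig4 and a peak in 1 library only at Clec4f and Cd5l, while Csf1r had one in all 6. Krt7 and Krt19 of cholangiocytes, Dcn of stellate cells, Cd79a, Cd8a and Nkg7 of lymphocytes and Mpo and Cxcr2 of neutrophils had no peak in any library. Other markers of these lists had a peak in all 6 libraries, such as Sox9, Epcam and Spp1 of cholangiocytes, Ptprc (32.3 to 42.6 normalized tags in dKO and 37 to 49.5 in control) and S100a9 of neutrophils. The summed ranges of dKO and control overlapped for each list other than the hepatocyte list. By limma, 4 of 26 shared regions at endothelial markers were lower (15.4%) and 1 higher, and 1 of 2 at Kupffer cell markers was lower. At stellate cell and cholangiocyte markers 0 of 10 and 0 of 8 were lower, with 1 higher each. None was called at lymphocyte and neutrophil markers. A smaller share of hepatocyte nuclei and less accessible chromatin per nucleus cannot be told apart in these bulk libraries, and their part in the results was not tested.

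Promoter sequences are shown for 8 of the genes, because motifs of the factors that drive the acute phase fall in them, in or near the regions measured below. At Socs3 and Cxcl1 the marked match lies outside the measured promoter region. The windows run from 250 bases before to 50 bases after the start site, 5′ to 3′ on the gene's strand, from RefSeq (GRCm38.p6). Capitals mark matches to the STAT motif TTCNNNGAA, the C/EBP motif TTGCNNAA or the NF-kB motif (GGGA, any base, TT, any base, CC), searched on both strands. The first 6 belong to promoter regions that were lower in dKO, the Orm2 promoter region was not called, and the Saa1 promoter region lacked a peak in 2 control libraries.
Saa2, chr7:46751583-46751882, plus strand: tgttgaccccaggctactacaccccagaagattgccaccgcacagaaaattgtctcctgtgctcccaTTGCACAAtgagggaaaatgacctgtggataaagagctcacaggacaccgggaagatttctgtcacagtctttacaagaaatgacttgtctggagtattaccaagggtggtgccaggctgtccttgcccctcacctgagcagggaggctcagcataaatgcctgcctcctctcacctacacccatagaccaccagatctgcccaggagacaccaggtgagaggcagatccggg
Steap4, chr5:7960222-7960521, plus strand: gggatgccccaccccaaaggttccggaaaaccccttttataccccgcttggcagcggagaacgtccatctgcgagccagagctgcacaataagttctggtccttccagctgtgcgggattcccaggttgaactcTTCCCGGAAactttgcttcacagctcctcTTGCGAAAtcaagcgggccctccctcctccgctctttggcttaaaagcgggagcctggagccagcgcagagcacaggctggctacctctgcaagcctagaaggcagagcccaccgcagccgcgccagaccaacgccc
Itih4, chr14:30886226-30886525, plus strand: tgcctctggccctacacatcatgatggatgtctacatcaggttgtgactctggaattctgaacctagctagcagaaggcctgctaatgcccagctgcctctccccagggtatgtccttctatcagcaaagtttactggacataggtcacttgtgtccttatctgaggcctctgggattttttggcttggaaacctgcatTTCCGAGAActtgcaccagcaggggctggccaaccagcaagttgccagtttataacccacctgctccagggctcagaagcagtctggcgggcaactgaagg
Socs3, chr11:117969317-117969616, minus strand: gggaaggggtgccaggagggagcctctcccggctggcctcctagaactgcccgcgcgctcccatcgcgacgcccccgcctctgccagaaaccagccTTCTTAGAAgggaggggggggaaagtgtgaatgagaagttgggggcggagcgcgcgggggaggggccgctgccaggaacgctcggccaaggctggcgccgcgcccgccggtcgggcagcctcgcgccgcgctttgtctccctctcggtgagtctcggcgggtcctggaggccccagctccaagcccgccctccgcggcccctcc
Nfkbia, chr12:55492598-55492897, minus strand: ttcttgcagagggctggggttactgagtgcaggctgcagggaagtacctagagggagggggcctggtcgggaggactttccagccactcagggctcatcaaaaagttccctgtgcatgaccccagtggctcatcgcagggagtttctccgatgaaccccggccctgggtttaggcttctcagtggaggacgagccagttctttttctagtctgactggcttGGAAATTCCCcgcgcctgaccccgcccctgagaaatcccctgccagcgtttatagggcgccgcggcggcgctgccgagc
Cxcl1, chr5:90890995-90891294, plus strand: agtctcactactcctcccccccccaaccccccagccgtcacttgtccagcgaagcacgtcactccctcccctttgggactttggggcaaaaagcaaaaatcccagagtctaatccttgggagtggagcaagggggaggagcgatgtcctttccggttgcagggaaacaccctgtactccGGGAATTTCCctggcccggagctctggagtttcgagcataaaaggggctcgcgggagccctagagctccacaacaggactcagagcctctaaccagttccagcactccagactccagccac
Saa1, chr7:46742931-46743230, minus strand: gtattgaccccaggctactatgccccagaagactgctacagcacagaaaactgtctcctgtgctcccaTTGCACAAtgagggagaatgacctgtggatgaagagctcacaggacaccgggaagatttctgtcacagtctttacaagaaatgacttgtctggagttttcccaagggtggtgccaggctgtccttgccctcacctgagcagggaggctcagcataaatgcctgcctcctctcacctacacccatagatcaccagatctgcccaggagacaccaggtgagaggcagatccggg
Orm2, chr4:63362199-63362498, plus strand: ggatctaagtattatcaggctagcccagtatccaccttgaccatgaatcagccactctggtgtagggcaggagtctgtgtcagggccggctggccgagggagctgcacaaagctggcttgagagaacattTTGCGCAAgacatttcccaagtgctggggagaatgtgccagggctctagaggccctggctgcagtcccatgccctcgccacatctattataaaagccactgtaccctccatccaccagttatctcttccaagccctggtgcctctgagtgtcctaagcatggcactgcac
The Saa1 and Saa2 windows were 96.0% identical (287 of 299 aligned bases), and those of Orm2 and Orm3 89.2% (263 of 295). Reads from such copies can be placed on either gene, so values at Saa1, Saa2 and the Orm genes are uncertain to that extent. In all, 27 of the genes had a window, 32 windows counting alternative starts, and Ccl2, Cebpd, Fgl1, Hp, Lbp, Nfkb1 and Orm1 had none. A C/EBP match lay in 11 of the 32 windows (34.4%), against 10.8% of all 32851 windows. The 11 include Saa1 and Saa2 and also Orm2 and Orm3, so near copies are counted separately in that share. A STAT match lay in 6 windows (18.8%, against 8.3%) and an NF-kB match in 3 (9.38%, against 1.2%), at Cxcl1, Cxcl10 and Nfkbia. The glucocorticoid response element (G, any base, ACA, a gap of 3 bases, TGT, any base, C) matched 0 windows, against 0.475% of all windows. Steap4 held both a STAT and a C/EBP match, 116 and 87 bases before the start. A match describes the letters of the window and says nothing about binding.

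Accessibility at the acute phase and cytokine genes was more often lower than higher in dKO nuclei. Of their 269 regions, 117 had a peak in all 6 libraries and were compared with limma on log2(value + 1). At an adjusted p under 0.05, 36 of these shared regions were lower in dKO (30.8%), where 11.6% of all 51749 shared regions were. Only 3 were higher, where 8.19% of all shared regions were, and 78 were not called. The lower regions lay at 22 genes and the higher ones at Hpx, Tnfaip3 and Cp. The median log2 fold change, dKO minus control, was -0.30 with quartiles of -0.49 and -0.03, against -0.02 with quartiles of -0.25 and 0.20 over all shared regions. In 50 regions every centred dKO value lay below every control value, where 20.6% of all shared regions did so, and in 10 every dKO value lay above, where 17.5% did. By role, 16 of 44 shared regions at acute phase proteins were lower and 2 higher (median -0.29). At the receptors 12 of 34 were lower and 0 higher (median -0.37), at signalling and transcription genes 6 of 28 were lower and 1 higher (-0.27), and at chemokine and adhesion genes 2 of 11 were lower and 0 higher (-0.17). Without dKO 3, 46 of 122 shared regions were lower and 5 higher, where 15.7% and 9.97% of all were. Calls over all regions fell without either of the other dKO libraries or any 1 control. Losses of single calls given below are thus not particular to these genes. Without dKO 1, 16 of 118 regions (13.6%) were lower, where 4.05% of all were, and 1 was higher, where 1553 of all 53062 were. Without dKO 2, 9 of 121 (7.44%) were lower, where 2.68% of all were, and 1 was higher, where 1236 of all 52600 were. Where the mean value reached 20 normalized tags, 17 of 62 regions were lower (9.49% of all such regions) and 2 higher (9.54%). Regions with a peak in 3 or more libraries were also fitted, with each missing peak set to that library's lowest value. There 8 of 188 were lower, where 1.92% of all were, and 1 was higher, where 1591 of all 79584 were. That setting ended 34 of the 39 calls, all but those at Hp, Il6st, 7954911 of Steap4, 90872428 of Cxcl1 and 46746534 of Saa1. Quantile normalization and cyclic loess each ended 11 calls, with 8.86% and 8.91% of all shared regions lower. Those calls were at Itih4, Il1rn, the promoters of Saa4, Steap4, Il6ra, Socs3, Nfkbia and Tnfaip3, 41217892 of Fgl1 and both Lbp regions. Leaving out the centring ended 8 calls, with 9.0% of all shared regions lower. They were at Saa4, Cp, the Il6ra and Nfkbia promoters, 55480680 of Nfkbia, 41217892 of Fgl1 and both Lbp regions. All 39 called regions had the same sign within both sets of peak width. The calls use these same libraries, and 34 of the 36 lower regions had no overlap of centred values, so the sign was largely fixed. The narrow set has control 1 as its only control, and the wide set dKO 3 as its only dKO library. The 36 lower regions had a median of -0.66 within the narrow-peak libraries and -0.43 within the wide-peak libraries. Of them, 30 had their highest dKO value in dKO 3, as did 81.2% of all regions called lower.

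**Figure D1:**
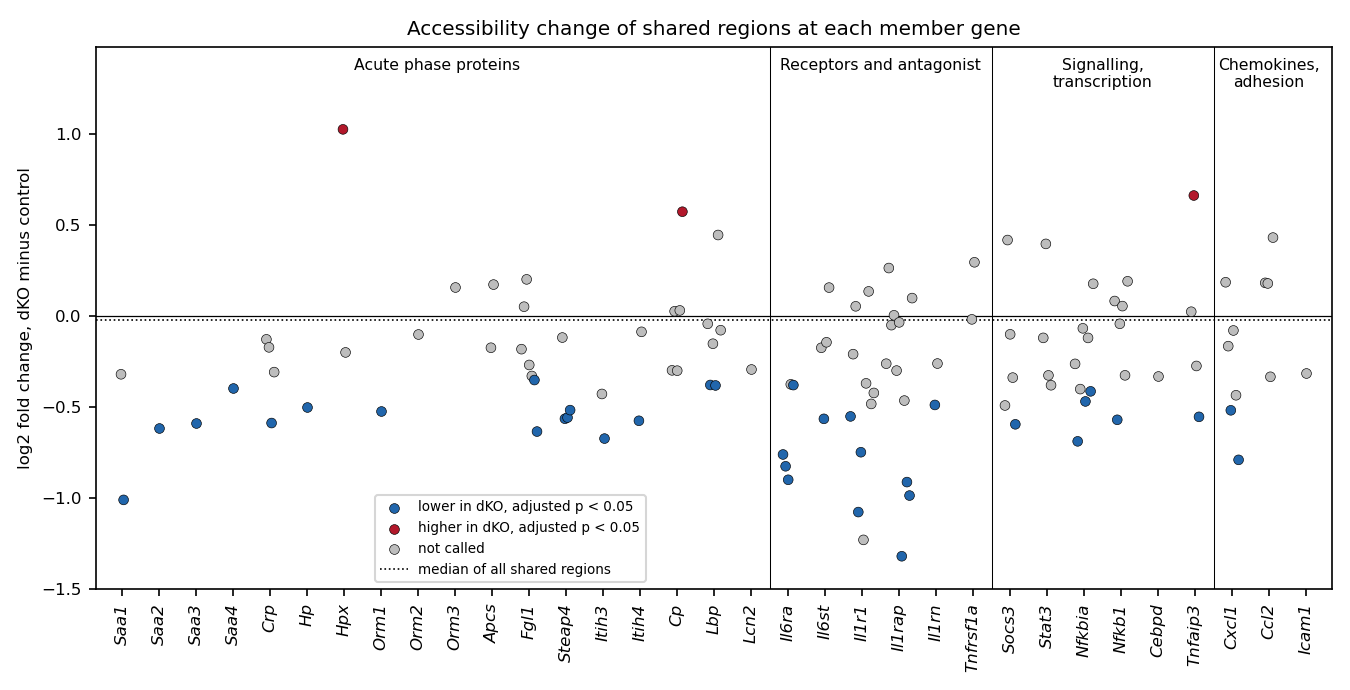
Log2 fold change (dKO minus control) of each of the 117 shared regions, by gene and role; each point is 1 region, coloured by its limma call, and the dotted line is the median of all shared regions (-0.02). Most points lie below 0, and the 3 regions called higher are at Hpx, Cp and Tnfaip3.

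The serum amyloid A genes form a cluster on chromosome 7, and each of the 4 had a shared region that was lower in dKO. Saa1 and Saa2 encode the main acute phase forms, apolipoproteins of high density lipoprotein that rise steeply in plasma during inflammation. The strongest change was upstream of Saa1, at chr7:46746534-46746723, with 11.2, 10.3 and 14.2 normalized tags in dKO 1 to 3, against 25.4, 24.6 and 27.8 in control 1 to 3. All dKO libraries lay well below all control libraries there. The log2 fold change was -1.01 (SE 0.14, limma adjusted p = 0.000913), with -1.04 for narrow-peak and -0.93 for wide-peak libraries. A neighbouring region upstream of Saa1, at chr7:46745915-46746137, had 24, 22 and 29.2 normalized tags in dKO and 33.7, 29.8 and 34.9 in control, and was not called (log2 fold change -0.32, adjusted p = 0.0694). There too every dKO library was below every control, but the gap between the groups was small. At the Saa1 promoter itself (chr7:46742998-46743241) the peaks held 17.7, 16.1 and 17.9 normalized tags in dKO and 20.2 in control 2, with no peak in control 1 and control 3.

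Saa2, transcribed away from Saa1, had its promoter region at chr7:46751584-46751816, with 5.6, 5.38 and 7.96 normalized tags in dKO and 12.1, 7.95 and 12.1 in control. This was the weakest of the SAA regions compared, and dKO 3 was level with control 2 before centring. Its log2 fold change was -0.61 (SE 0.18, limma adjusted p = 0.0308). Saa3, an inducible form made by many cell types, had 20.6, 20.9 and 28.3 normalized tags in dKO and 35.4, 37 and 37.6 in control at the 5′ edge of its gene span, chr7:46719618-46719835. The groups did not overlap, and the log2 fold change was -0.59 (SE 0.12, limma adjusted p = 0.00581). Saa4, the constitutive form, had 25.1, 20.3 and 22.4 normalized tags in dKO and 33.1, 28.1 and 32.9 in control at its promoter, chr7:46732550-46732769. Its change was the smallest of the 4 genes' called regions (log2 fold change -0.40, SE 0.13, limma adjusted p = 0.0448). The call upstream of Saa1 held without each library and in every alternative in which the region was tested, which leaves out the filters on mean value and on score. The Saa3 call held without each library and was lost only with regions in at least 3 libraries (adjusted p = 0.0562). The Saa2 call was lost without dKO 1, dKO 2, control 1 or control 3 (adjusted p up to 0.126) and with regions in at least 3 libraries (0.108). The Saa4 call was lost without dKO 1, dKO 2, dKO 3, control 1 or control 3 (up to 0.137) and also without centring, after quantile normalization or cyclic loess, and under the filters on libraries, mean value and score (up to 0.1965).

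**Figure D2:**
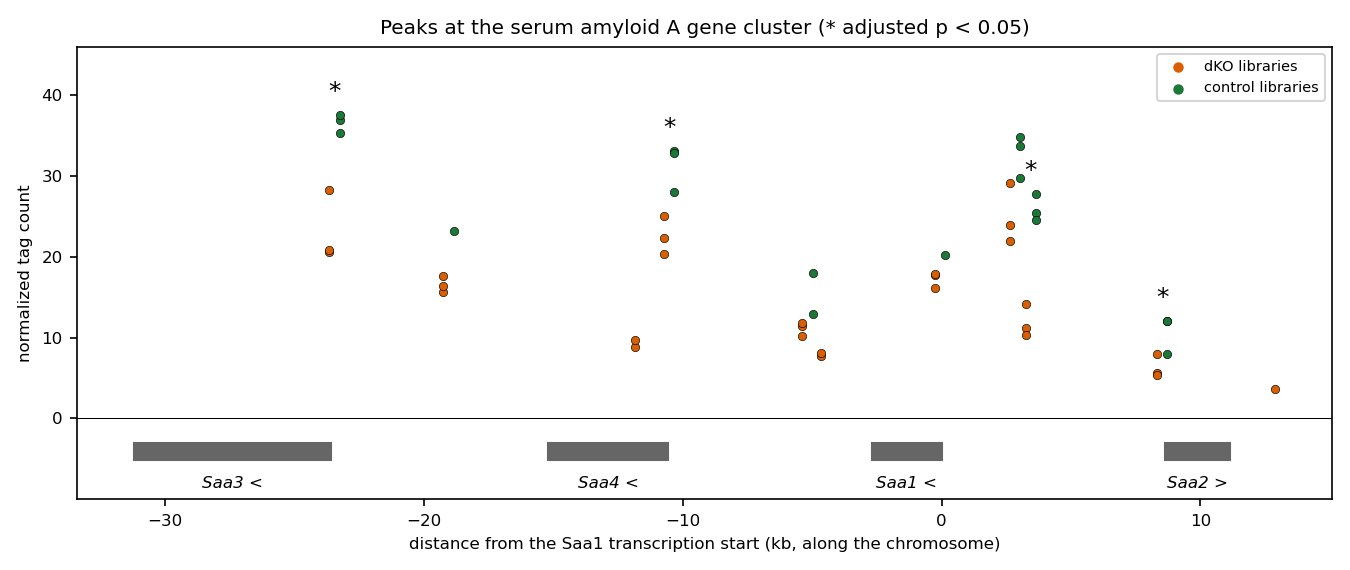
Normalized tag count of each library's peaks (dKO orange, control green) along the SAA cluster, against distance in kb from the Saa1 start; grey bars are gene spans with their strand and * marks limma adjusted p under 0.05. At each of the 4 marked regions dKO values are lower, with Saa1 at 10.3 to 14.2 in dKO and 24.6 to 27.8 in control.

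Regions at 8 further genes of acute phase proteins were lower in dKO, and 1 region each at Hpx and Cp was higher. Hp encodes haptoglobin, which binds free haemoglobin in plasma. Its single shared region, chr8:109584969-109585144, lay 5884.5 bp from the gene span and had 34.1, 28.5 and 39.4 normalized tags in dKO and 51, 49.1 and 50.6 in control. The controls were close together and above all dKO libraries (log2 fold change -0.50, SE 0.10, limma adjusted p = 0.00635). Hpx encodes hemopexin, the plasma binder of haem, and it went the other way at chr7:105590597-105590836, 894.5 bp beyond the gene, with 52.8, 41.3 and 51.3 normalized tags in dKO and 30.4, 16 and 28.9 in control. Each dKO library exceeded each control library (log2 fold change 1.03, SE 0.19, limma adjusted p = 0.00348). At the Hpx promoter the values were 42.8, 39.5 and 46.2 in dKO and 50.1, 47.2 and 57.5 in control, and the region was not called (log2 fold change -0.20, adjusted p = 0.216). Cp encodes ceruloplasmin, the copper-carrying ferroxidase of plasma, and its region inside the gene at chr3:20002856-20003061 had 12.2, 13.9 and 13.7 normalized tags in dKO and 8.83, 9.33 and 8.8 in control (log2 fold change 0.57, SE 0.16, limma adjusted p = 0.0251). Both groups were tight there and did not overlap. The strongest Cp region, upstream of the gene, had 32.8, 32.5 and 42 normalized tags in dKO and 46.9, 46.4 and 44.3 in control and was not called (log2 fold change -0.30, adjusted p = 0.0695). The Hpx call held without each library and was lost with regions in at least 3 libraries (adjusted p = 0.0684). The Hp call was lost without dKO 2 (0.0573), and the Cp call without dKO 1, dKO 2, control 1 or control 3 (up to 0.155).

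Itih3 and Itih4 are neighbours on chromosome 14 that encode heavy chains of the inter-alpha-trypsin inhibitor family, which bind hyaluronan. The Itih3 promoter region, chr14:30923477-30923705, had 21.1, 17.8 and 28.9 normalized tags in dKO and 38.5, 31.8 and 43.2 in control, and the Itih4 promoter region, chr14:30886244-30886472, had 22.4, 22.2 and 40.5 in dKO and 45.6, 37.2 and 46.6 in control. The groups were apart at Itih3, while dKO 3 lay within the controls at Itih4. Their log2 fold changes were -0.67 (SE 0.14) and -0.58 (SE 0.16), with limma adjusted p of 0.00609 and 0.0234. The strongest Itih4 region, inside the gene, had 41, 35.4 and 49.4 in dKO and 54.2, 40.9 and 44.3 in control and was not called (log2 fold change -0.09). At the Itih4 promoter the narrow-peak libraries gave -0.87 and the wide-peak libraries -0.14. Steap4 encodes a metalloreductase that inflammation induces in liver, and 3 of its 4 shared regions were lower. Its promoter region, chr5:7960261-7960541, which holds the STAT and C/EBP matches printed above, had 36.6, 33.2 and 38.7 normalized tags in dKO and 55.6, 45.4 and 63.7 in control. All dKO libraries were below all controls (log2 fold change -0.52, SE 0.13, limma adjusted p = 0.0127). The other Steap4 regions that fell, upstream at 7954911 and 7955508, each changed by -0.56. The Itih3 call was lost without dKO 2 (adjusted p = 0.0537), and the Itih4 call without dKO 1, dKO 2, control 1 or control 3 (up to 0.126). All 3 Steap4 calls were lost without dKO 2, with adjusted p of 0.0596 to 0.0731, and the promoter call also without control 3.

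The orosomucoid genes encode alpha-1-acid glycoproteins, plasma carriers of drugs and lipids, and they differed among themselves. Orm1 had 31.4, 27.7 and 45.6 normalized tags in dKO and 50.6, 49 and 55.8 in control beside its gene span, chr4:63344365-63344561 (log2 fold change -0.52, SE 0.12, limma adjusted p = 0.011). All dKO libraries were below the controls, with dKO 3 the nearest. The Orm2 promoter region, chr4:63362224-63362437, had 40.1, 34.1 and 44.5 in dKO and 47, 41.1 and 44.2 in control, and the shared Orm3 region had 43.7, 42.1 and 41.8 in dKO and 47, 35.6 and 37.4 in control. The groups overlapped at both, and neither was called (log2 fold changes -0.10 and 0.16, adjusted p = 0.548 and 0.43). The difference between Orm1 and the other Orm genes was not tested. The Orm1 call was lost without dKO 1 or dKO 2 (adjusted p up to 0.0877).

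Crp and Apcs encode the pentraxins C-reactive protein and serum amyloid P, of which serum amyloid P is the major acute phase pentraxin in mice. At Crp, 1 of 4 shared regions fell, downstream of the gene at chr1:172710019-172710192, with 11, 10.9 and 16.1 normalized tags in dKO and 18.6, 22.8 and 19.2 in control (log2 fold change -0.59, SE 0.15, limma adjusted p = 0.0174). The strongest Crp region, at the promoter (chr1:172697599-172697947), had 16.8, 16.7 and 22.7 in dKO and 34 and 33.6 in control 1 and control 3, and no peak in control 2. Next to it, chr1:172697961-172698133 had 11.9, 17.1 and 22.2 in dKO and 36.6 and 33.6 in control 1 and control 2, and no peak in control 3. In both Crp promoter regions every dKO peak was below every control peak, and neither was tested. Neither shared Apcs region was called, and its promoter region had 28.9, 22.7 and 33.3 normalized tags in dKO and 31.8, 29.6 and 38.5 in control. Fgl1, which encodes a hepatocyte-secreted fibrinogen-like protein, had 2 of 7 shared regions lower, at 41217892 on the edge of the gene span (log2 fold change -0.35) and at 41219740 (-0.64). The first, the strongest at Fgl1, had 40.4, 37.5 and 49.8 normalized tags in dKO and 57.2, 51.2 and 61.9 in control. The second had 20.1, 22.1 and 35.3 normalized tags in dKO and 48.5, 36 and 40.1 in control, with dKO 3 just under the lowest control. Lbp, which encodes the lipopolysaccharide-binding protein, had 2 of 6 shared regions lower, both by 0.38 on the log2 scale. Its strongest region, at chr2:158359808-158360042, had 51.5, 48.4 and 75.8 normalized tags in dKO and 57.3, 62.5 and 70.8 in control, where dKO 3 was highest of all. Lcn2, which encodes the iron-sequestering siderophore binder lipocalin 2, had 19.5, 15.4 and 26.8 in dKO and 30, 21.4 and 26.9 in control at its promoter and was not called (adjusted p = 0.202). The Crp, Fgl1 and Lbp calls were each lost without dKO 1 and without dKO 2. Other single libraries also ended them: control 2 at Crp, control 1 at both Fgl1 and both Lbp regions, and at 41217892 of Fgl1 also control 3. At Lbp, control 2 did so for both regions, control 3 for that at 158305991 and dKO 3 for that at 158341429. The largest adjusted p were 0.0912 at Crp, 0.149 at Fgl1 and 0.206 at Lbp.

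The cytokine receptors held the 2 largest falls among the called regions of the 34 genes, at Il1rap and Il1r1. Il6ra encodes the interleukin 6 receptor alpha chain, and 4 of its 5 shared regions were lower in dKO. Inside the gene at chr3:89901476-89901740 it had 25.3, 25.4 and 45.7 normalized tags in dKO and 54.8, 62.2 and 66.9 in control. The values in dKO 1 and dKO 2 were almost equal and far below the controls, and dKO 3 lay between. The log2 fold change was -0.90 (SE 0.15, limma adjusted p = 0.00255), with -0.95 for narrow-peak and -0.59 for wide-peak libraries. The next region inside the gene, chr3:89899216-89899388, had 24.9, 26.4 and 42.6 in dKO and 51.7, 59.8 and 60.1 in control (log2 fold change -0.83, SE 0.14, limma adjusted p = 0.00269), in the same order of libraries. Farther into the gene, the region at 89890042 changed by -0.76, with 9.15, 12.4 and 19.9 in dKO and 27, 21.1 and 24.4 in control. At the Il6ra promoter, chr3:89913134-89913356, values were 29.6, 31.7 and 41.1 in dKO and 51.9, 45.2 and 42.1 in control, and the change was smaller (log2 fold change -0.38, adjusted p = 0.049). The calls at 89901476 and 89899216 held without each library. The call at 89890042 was lost without dKO 1, dKO 2 or control 1 (adjusted p up to 0.0841), and the promoter call without dKO 1, dKO 2, control 1 or control 2 (up to 0.204).

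Il6st encodes gp130, the signalling chain shared by interleukin 6 family receptors. Inside Il6st, 1 of 4 shared regions fell, at chr13:112486361-112486540, with 19.6, 14.8 and 20.5 normalized tags in dKO and 30.4, 25.7 and 29.7 in control (log2 fold change -0.57, SE 0.13, limma adjusted p = 0.00919). The groups did not overlap, and the call was lost without dKO 2 (0.0682). Its promoter had no shared region. One of the promoter's regions, at chr13:112463912-112464343, had 28.2, 29.3 and 44.8 in dKO and 52.3 and 49.2 in control 1 and control 2, with no peak in control 3.

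Il1rap encodes the accessory chain of the interleukin 1 receptor, and 3 of its 11 shared regions fell, all deep inside the gene. At chr16:26643311-26643483 the values were 4.6, 3.92 and 11.1 normalized tags in dKO and 13.9, 18.8 and 19 in control. This was the largest fall of any called region at these genes (log2 fold change -1.32, SE 0.24, limma adjusted p = 0.00325), with -1.37 for narrow-peak and -0.82 for wide-peak libraries. Further on, chr16:26698165-26698337 had 5.07, 4.81 and 7.53 in dKO and 13.6, 11.4 and 11.6 in control (log2 fold change -0.91, SE 0.16, limma adjusted p = 0.00314). The region at chr16:26706589-26706801 had 8.74, 7.79 and 17.4 in dKO and 23, 23.5 and 22.7 in control (log2 fold change -0.99, SE 0.19, limma adjusted p = 0.00442). In all 3 regions dKO 3 was the highest dKO library, and it stayed below each control. The Il1rap promoter was its strongest region, with 40.3, 41.1 and 61.5 in dKO and 61.5, 60 and 54.8 in control, and it was not called (log2 fold change -0.26, adjusted p = 0.153). The 3 Il1rap calls held without each library and were lost with regions in at least 3 libraries (adjusted p of 0.0502 to 0.0708).

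Il1r1 encodes the signalling interleukin 1 receptor, and 3 of its 10 shared regions fell. The strongest, chr1:40175930-40176103, lies 46463.5 bp before the gene span, with 26.3, 19.9 and 30.9 normalized tags in dKO and 39.5, 36.3 and 42.1 in control (log2 fold change -0.55, SE 0.12, limma adjusted p = 0.00762). At chr1:40187962-40188243, also before the gene, there were 5.83, 5.85 and 13.1 in dKO and 14.2, 14.1 and 29.7 in control (log2 fold change -1.08, SE 0.27, limma adjusted p = 0.0149). Inside the gene, chr1:40229859-40230052 had 20.1, 16.9 and 32.6 in dKO and 32.7, 37.5 and 51.7 in control (log2 fold change -0.75, SE 0.18, limma adjusted p = 0.0108). The groups were apart at all 3, though at the last dKO 3 came within 0.1 normalized tags of control 1. Control 3 was the highest library at these 3 regions, and more so at chr1:40236795-40237107, which had 4.84, 4.76 and 14.5 in dKO and 14.3, 8.04 and 54.4 in control and was not called (log2 fold change -1.23). Il1rn, which encodes the interleukin 1 receptor antagonist, fell at chr2:24335498-24335708, with 30.1, 25.4 and 42.7 in dKO and 44.4, 48.9 and 48.7 in control (log2 fold change -0.49, SE 0.12, limma adjusted p = 0.0152). Tnfrsf1a, which encodes tumour necrosis factor receptor 1, was not called at either shared region. Its region inside the gene had 47.7, 35.1 and 42.5 in dKO and 40.5, 31.5 and 33.8 in control. The Il1r1 call at 40175930 was lost without dKO 2 (adjusted p = 0.068), and the other Il1r1 calls and that of Il1rn without dKO 1 or dKO 2 (up to 0.113).

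**Figure D3:**
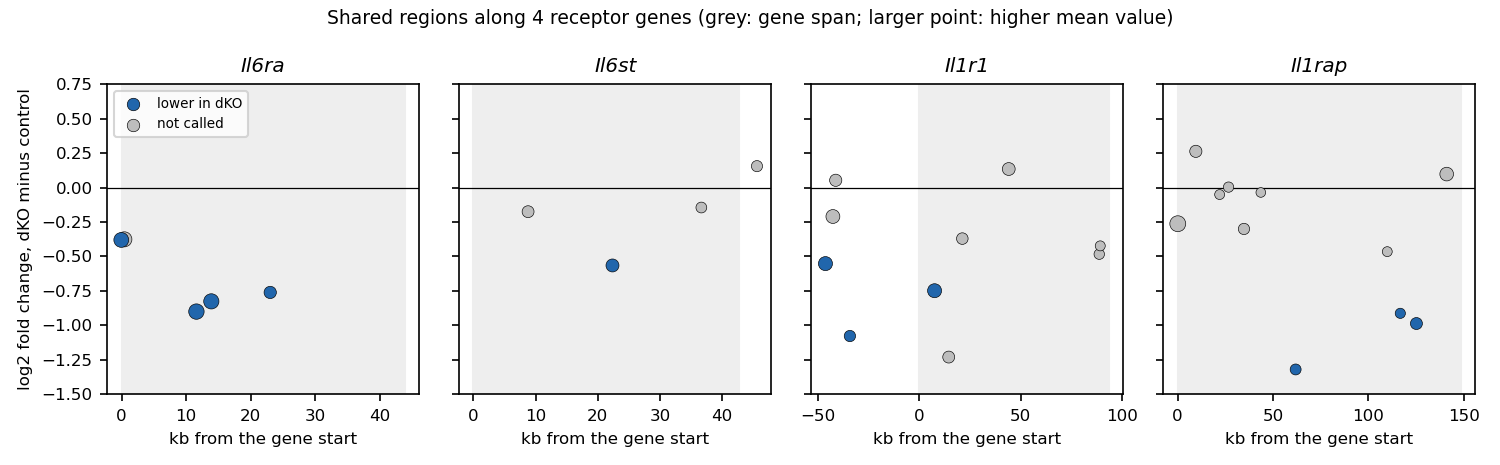
Log2 fold change (dKO minus control) of the shared regions along Il6ra, Il6st, Il1r1 and Il1rap, against distance in kb from the gene start; grey shading is the gene span, blue points are lower in dKO by limma, and larger points have a higher mean value. The falls at Il6ra (-0.90 and -0.83) and Il1rap (-1.32, -0.91 and -0.99) lie inside the genes and exceed those at their promoters (-0.38 and -0.26).

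Signalling and transcription genes had 6 regions lower, at Nfkbia, Socs3, Tnfaip3 and Nfkb1, and 1 higher, at Tnfaip3. Nfkbia encodes I-kappa-B alpha, the inhibitor that holds NF-kB in the cytoplasm and is itself an NF-kB target. Its region beyond the gene at chr12:55467690-55467874 had 26.6, 24.2 and 40.8 normalized tags in dKO and 49.3, 48.2 and 54.9 in control. The controls were all above dKO 3, the highest dKO library (log2 fold change -0.69, SE 0.13, limma adjusted p = 0.00414). The strongest Nfkbia region, chr12:55473741-55473956, had 48, 48.3 and 81.7 in dKO and 74.2, 84 and 80.8 in control. There dKO 3 was at control level, and the region was not called (adjusted p = 0.0564). Likewise the Nfkbia promoter region, chr12:55492570-55492833, which overlaps the printed window with its NF-kB match, had 45, 43.7 and 72.7 in dKO and 66, 74 and 80 in control. It was called lower (log2 fold change -0.41, SE 0.14, adjusted p = 0.0451), with dKO 3 above control 1. The call at 55467690 held without each library, and that at the promoter held only without dKO 3, with adjusted p up to 0.202 without the others. A weaker region at 55480680 (-0.47) lost its call without dKO 1, dKO 2 or control 2 (up to 0.129).

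Socs3 encodes the feedback inhibitor of gp130 signalling, itself induced by STAT3. Its promoter region, chr11:117969210-117969401, had 25.1, 29.9 and 49.5 normalized tags in dKO and 58.4, 47.2 and 54.7 in control. The values of dKO 1 and dKO 2 were low and that of dKO 3 was above control 2 before centring. The log2 fold change was -0.60 (SE 0.17, limma adjusted p = 0.0246), with -0.93 for narrow-peak libraries, -0.13 for wide-peak libraries and -0.79 without dKO 3. Tnfaip3 encodes A20, a ubiquitin-editing inhibitor of NF-kB signalling, and was the only gene among the 34 with shared regions called in both directions. Its promoter region, chr10:19015251-19015449, fell, with 16.3, 15.4 and 29.5 in dKO and 28.1, 32.3 and 31.1 in control (log2 fold change -0.55, SE 0.16, limma adjusted p = 0.0292). Beyond the gene, chr10:18994180-18994378 rose, with 16.2, 12.6 and 11.5 in dKO and 7.93, 9.38 and 8.02 in control (log2 fold change 0.66, SE 0.18, limma adjusted p = 0.0219). All dKO libraries were above all controls at that second region. Nfkb1, which encodes the NF-kB subunit p50 and its precursor, fell at 1 weak region inside the gene, with 5.13, 5.38 and 7.72 in dKO and 9.9, 8.09 and 11.8 in control (log2 fold change -0.57, adjusted p = 0.034). Its strongest region was not called, with 40.4, 34.3 and 58.2 in dKO and 36.2, 48.6 and 46.5 in control. Cebpd, which encodes the C/EBP delta factor, had 39.6, 43.2 and 60.4 in dKO and 63.8, 58.9 and 63.1 in control beside its gene span, and was not called (log2 fold change -0.33, adjusted p = 0.0739). Each of the 4 calls at Socs3, Tnfaip3 and Nfkb1 was lost without dKO 1 or dKO 2, with the largest adjusted p of 0.114 at Socs3, 0.151 at Tnfaip3 and 0.149 at Nfkb1. Leaving out control 3 also ended each of them, as did control 1 for those at Socs3, at Nfkb1 and at 18994180 of Tnfaip3, and control 2 for the Tnfaip3 promoter.

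Stat3 encodes the transcription factor activated by interleukin 6 family cytokines, and its 4 shared regions, not called, changed by -0.38 to 0.40 on the log2 scale. At the Stat3 promoter the position of the peaks differed between groups. A region at chr11:100939645-100939852, upstream of the start, had peaks of 22.7, 23.4 and 34.9 normalized tags in dKO 1 to 3 and none in any control. The adjoining region at chr11:100939362-100939550 had 27.1 and 22.9 in dKO 1 and dKO 2, no peak in dKO 3, and 49.6, 34.1 and 31.8 in control 1 to 3. The controls had peaks in the adjoining region of the same promoter, so the first region does not show that they were closed there. A peak is listed only where it exceeds its local surroundings, with a lowest local fold of 4 in each list, and a site inside a wider open stretch can miss that limit.

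**Figure D4:**
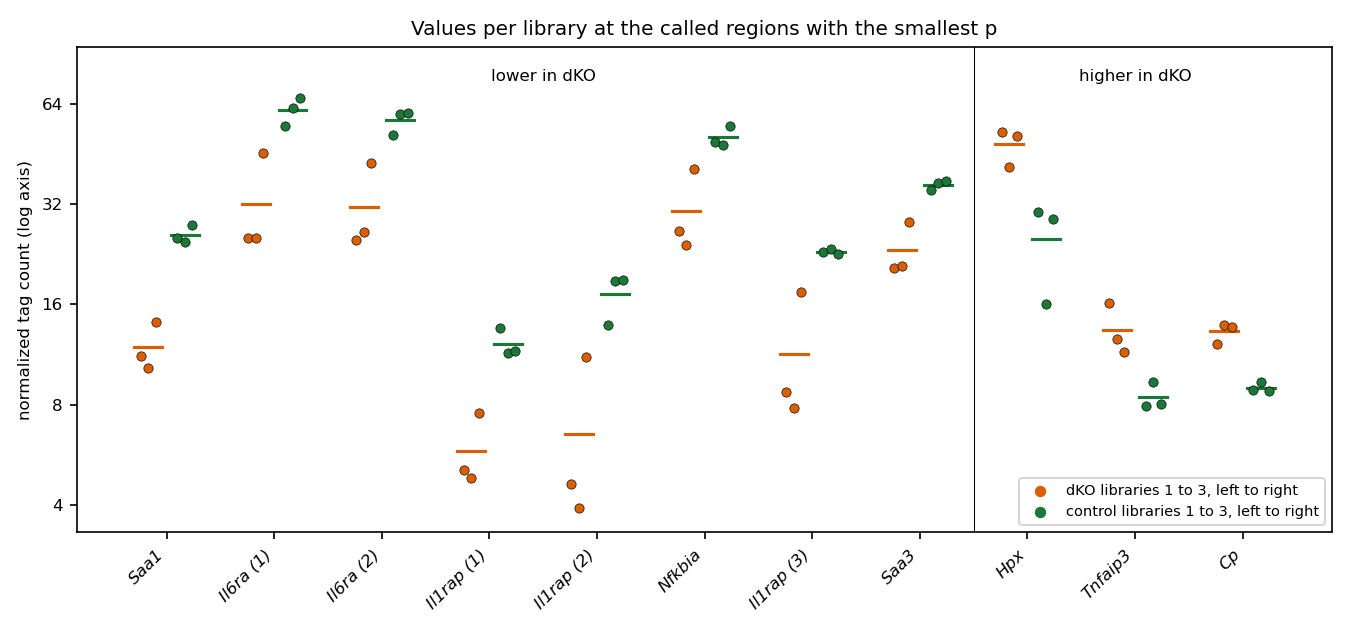
Normalized tag count (log axis) in each library at the 8 lower regions with the smallest p and the 3 higher regions; points are dKO 1 to 3 (orange) and control 1 to 3 (green) from left to right, and lines are group means. At the Il6ra, Il1rap and Nfkbia regions shown, dKO 3 is the third orange point and lies nearest the controls.

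The chemokine and adhesion genes had 2 lower regions, both at Cxcl1. Cxcl1 encodes a neutrophil-attracting chemokine and NF-kB target, and its promoter region, chr5:90891185-90891434, had 12.8, 15.8 and 20.8 normalized tags in dKO and 34, 22.2 and 35.6 in control. All dKO libraries were below the lowest control, control 2. The log2 fold change was -0.79 (SE 0.19, limma adjusted p = 0.0107), with -1.07 for narrow-peak and -0.52 for wide-peak libraries. Upstream, chr5:90872428-90872649 had 23.9, 17.7 and 24.8 in dKO and 37.8, 30.4 and 31.9 in control (log2 fold change -0.52, SE 0.13, limma adjusted p = 0.0137). The call at the Cxcl1 promoter was lost without dKO 1 (adjusted p = 0.0647) and that of the upstream region without dKO 2 (0.0932). Ccl2, which encodes a monocyte-attracting chemokine, was not called at any of 4 shared regions, which ranged from -0.33 to 0.43 in log2 fold change. Its strongest region had 14.5, 15.1 and 22 in dKO and 20, 24.9 and 23 in control. Icam1, which encodes an adhesion molecule for leukocytes, had 25.9, 24.3 and 38.4 in dKO and 41.9, 38.9 and 33.1 in control at its promoter and was not called (log2 fold change -0.31, adjusted p = 0.121).

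Promoters were considered apart from other regions, since most of the genes have a start site with an annotated window. Of the 19 shared regions that overlapped a promoter window, 10 were lower in dKO (52.6%) and 0 higher, where 10.9% and 2.02% of all 7172 such regions were. Their median log2 fold change was -0.38, against -0.13 for all shared promoter regions. Of the 72 shared regions outside the windows of these genes, 19 were lower (26.4%) and 3 higher, where 10.7% and 9.78% of all such regions were. The median was -0.30, against 0.02 for all of them. The 10 promoters that fell were those of Cxcl1, Itih3, Saa2, Socs3, Itih4, Tnfaip3, Steap4, Nfkbia, Saa4 and Il6ra. Those not called were Icam1, Lcn2, Il1rap, Hpx, Apcs, Orm2, Tnfrsf1a, Cp and Il1r1. A STAT match lay in the window of 3 of the 10 lower and 3 of the 9 other promoter regions, a C/EBP match in 3 and 5, and an NF-kB match in 2 and 0. A match in the window can lie outside the measured region, as at Socs3 and Cxcl1. Each of the 10 promoter calls was lost when 1 library was left out, as given for each gene above.

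**Figure D5:**
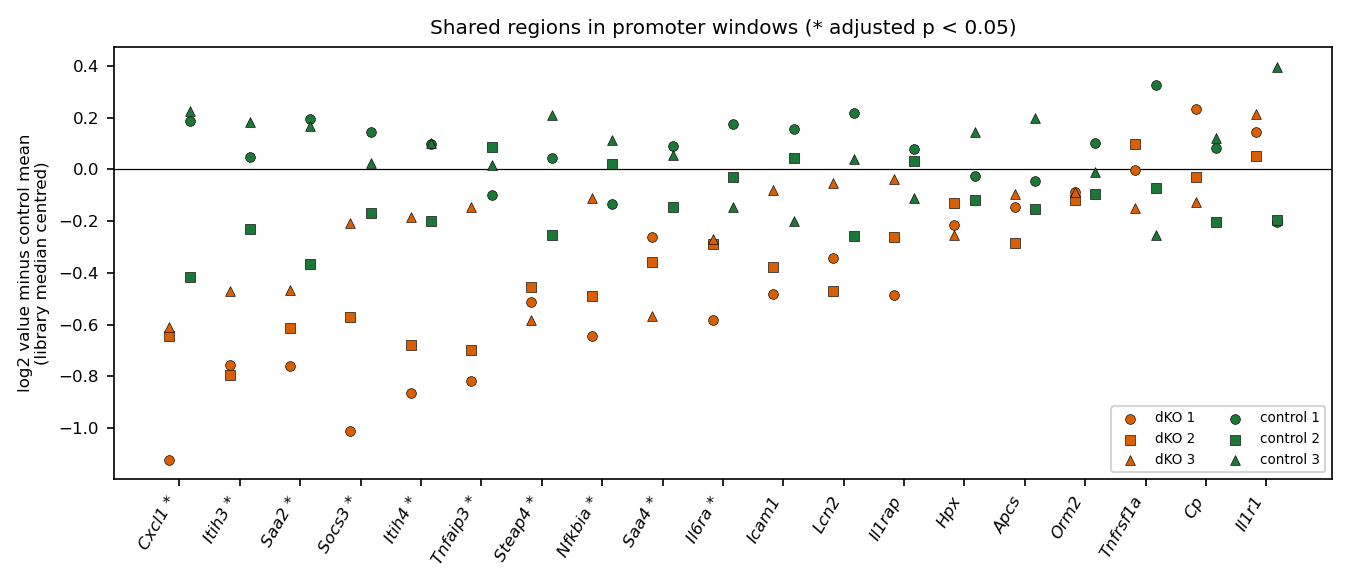
Log2 value minus the control mean (library median centred) at the 19 shared promoter regions, ordered by fold change; dKO libraries are orange, control libraries green, with a marker shape for each library number, and * marks limma adjusted p under 0.05. At the 10 marked promoters the dKO libraries lie low, and at Socs3, Itih4 and Nfkbia dKO 3 lies near the controls.

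Regions with peaks in one group alone were few. Of the 269 regions, 3 had peaks in every dKO library and not 1 control, where 1.57% of all regions did, and 3 in every control and not 1 dKO library, where 1.34% did. Besides the Stat3 promoter region, a region inside Stat3 at chr11:100908735-100908907 had 6.24, 3.4 and 6.56 normalized tags in dKO, and one at chr5:7922943-7923122, 37439.5 bp before Steap4, had 12.6, 7.11 and 5.16. Those in control were at chr2:158365486-158365715 near Lbp (13.3, 11.4 and 13.5), at chr1:40194392-40194601 before Il1r1 (4.74, 4.16 and 7.29) and at chr11:82010905-82011101 near Ccl2 (4.84, 8.04 and 7.4). Apart from the Stat3 promoter region these were weak peaks, and a region without a peak can hold tags under the calling limit. Leaving out dKO 3 raised the first count to 15 and the second to 7, and leaving out control 1 gave 11 and 5. Without dKO 1 they were 5 and 4, and without control 2 they were 6 and 4. Shares of all regions under these settings are not given, so these changes in count are no result about these genes. A further 146 regions had peaks in another part of the libraries and were not tested, 52 of the 269 in 1 library only.

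At further genes of the same pathways, lower and higher regions were closer in number. Of 70 shared regions at 18 further genes of the interleukin 6 and JAK-STAT pathway, 9 were lower (12.9%) and 3 higher, with a median log2 fold change of -0.09, where 11.6% of all shared regions were lower and 8.19% higher. Lifr, which encodes the leukaemia inhibitory factor receptor that pairs with gp130, held 5 of the 9. Its region inside the gene at chr15:7159959-7160257 had 16.2, 17 and 28.1 normalized tags in dKO and 50.4, 40.5 and 57.4 in control (log2 fold change -1.20, SE 0.16, limma adjusted p = 0.000944). Jak1, Jak2, Tyk2, Osmr and Cebpb had none called. Of 93 shared regions at the interleukin 1, tumour necrosis factor and NF-kB genes, 12 were lower (12.9%) and 10 higher (10.8%), with a median of -0.06, and Il1a and Tnf had no region. The lower shares of both lists were near that of all shared regions, so the single regions given here describe those genes and not the lists. Birc3, which encodes the ubiquitin ligase cIAP2, fell inside the gene (log2 fold change -1.33, limma adjusted p = 0.00126), with 7.23, 8.99 and 13.2 in dKO and 32.8, 25.1 and 22.9 in control. Regions at Traf6 and Tab2, which encode adaptors of interleukin 1 signalling, rose. The region inside Traf6 with the larger change had 12.2, 10.7 and 8.08 in dKO and 3.94, 4.31 and 4.04 in control (limma adjusted p = 0.00198), and the Tab2 region changed by 1.14. The difference between these lists and the 34 genes was not tested.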

How the data were processed

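The 6 peak lists were made by the authors on mm10 with tools that include HOMER 4.11, SAMtools 1.10, Picard and Trim Galore 0.6.4, per the submitters' processing notes. The sources used here name no aligner, filters, cut-site shift or peak options. Per the file headers, the value used is the normalized tag count, a signal of tags in the peak scaled to library depth by the authors. The depth behind that scaling is unknown, so counting errors cannot be given. The deposited lists also hold a score per peak, the focus ratio (a fraction), the fold over local tags (a ratio, never under 4) and a p-value, per the file headers. Of these, only the score and local fold were used, to describe or filter peaks.

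Peaks were merged and linked to genes as described above, with Python 3.11.15 and pandas 2.3.3. Peaks on Y, 17 to 24 per library, were left out. Regions with a peak in all 6 libraries were centred on each library's median and compared by limma 3.58.1 (R 4.3.3) on log2(value + 1), with a mean-variance trend, 2-sided, Benjamini-Hochberg adjusted over all 51749 shared regions at 0.05. The pseudocount of 1 makes fold changes of low regions slightly too small. Log2 fold changes are dKO minus control, with limma's moderated standard errors. On simulated data for this comparison with 51749 regions, 59% of 100 regions changed by 1.2 on the log2 scale and 1% of 100 changed by 0.6 were called, and 0.00194% of unchanged ones. In the data far more regions were called (4240 higher and 5995 lower), which loosens the Benjamini-Hochberg limit. The simulated spreads were also drawn without regard to the mean value, so these shares do not give the power of the reported fit. Promoter windows were aligned with Biopython 1.88. Named regions are each gene's region with the highest mean, each called region and each region with peaks in all libraries of one group alone. The Saa1 promoter region, the Crp region at 172697961, the Il1r1 region at 40236795 and the regions of the further pathway genes fall outside that rule and were chosen after their values were seen. The genes and lists were chosen with earlier results of these data known. Alternatives were other normalizations, filters, pseudocounts, merging and linking rules, only peaks scoring above their list's median, peak width as a term, a replicate block and leaving out each library.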

Additional observations from a re-analysis of the deposited data

How the results depend on the processing

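None of the 39 called regions changed direction under any alternative run. The count of lower regions was 8 with regions in at least 3 libraries (missing peaks set to the library's lowest value), 17 where the mean reached 20 normalized tags and 19 from peaks scoring above their list's median, against 36 as reported, and the last 2 settings test fewer regions. In that order, 1.92%, 9.49% and 8.79% of all regions tested were lower, against 11.6% as reported. The count of higher regions, reported as 3, was 1 with regions in at least 3 libraries, where 1591 of all 79584 were higher. The median log2 fold change, reported as -0.30, was -0.20 after quantile normalization and -0.20 after cyclic loess, -0.19 where the mean reached 20 and -0.18 above the median score, and the cause was not tested. Linking within 10 kb left 0 regions with peaks in all controls alone, where 50 kb gave 3. Leaving out 1 library at a time gave 9 to 46 lower and 1 to 5 higher regions, a median of -0.32 to -0.23, 3 to 15 regions with peaks in all dKO libraries alone and 3 to 7 in all controls alone. Of the 52600 to 54403 regions tested in each of these fits, 2.68% to 15.7% were lower and 1236 to 5262 regions were higher. Shares of all regions for peaks in 1 group alone are not given for these settings. With 2 libraries in a group, that group's spread is taken to be like the other's. Of the 39 calls, 34 were lost with regions in at least 3 libraries, 29 without dKO 2 and 22 without dKO 1. Over all regions the reported 5995 lower and 4240 higher became 1531 and 1591, 1410 and 1236, and 2151 and 1553 in these settings. Further, 7 to 14 of the 39 were lost without 1 control, 2 without dKO 3, 11 after quantile normalization and 8 without centring. Over all regions, quantile normalization gave 4585 lower and 4473 higher, and no centring 4655 and 2562. The counts of lost calls are thus no result about these genes alone.

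The sources used here do not say whether equal replicate numbers pair the libraries. Correlations of deviations from the group mean cannot decide it, since the deviations cancel out within a group of 3. They were 0.146, -0.0322 and 0.2341 for numbers 1 to 3. The libraries dKO 1 and dKO 3 correlated best with the control of their own number, and dKO 2 with control 1 (0.1566). With the replicate block, 43 regions were lower and 4 higher, where 7384 (14.3%) and 5417 of all 51749 shared regions were, and all 39 calls remained. Depth is not known from the lists, and a site without a peak may hold tags under the calling limits.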

Other observations

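Of 37 shared regions at 17 further genes of positive acute phase proteins, 18 were lower in dKO (48.6%), 1 was higher and the median log2 fold change was -0.42, where 11.6% of all shared regions were lower and 8.19% higher. Fgg, which encodes the gamma chain of fibrinogen, fell most strongly by p, with 19.6, 17.6 and 24.7 normalized tags in dKO and 43.8, 39.4 and 47.7 in control (log2 fold change -0.99, limma adjusted p = 0.000657). Serping1, which encodes the C1 inhibitor, had 4 lower regions (-0.81 to -0.52), and Serpina3n, C3, Cfb, Agt and both Itih1 and Itih2 had at least 1. The metallothionein gene Mt2 had a lower region (-0.61) and its neighbour Mt1 a higher one (0.54).

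Negative acute phase proteins are those whose plasma levels fall in inflammation. At their 8 genes, 8 of 18 shared regions were lower and 1 higher, with a median of -0.38, beside the same shares over all shared regions. The lower regions lay at 3 genes, with 1 each at Fetub and Rbp4, and Ahsg, Serpina6 and Ttr had none called. At Alb, which encodes albumin, 6 of 7 shared regions fell, with log2 fold changes of -1.08 to -0.55. Trf, which encodes transferrin, was higher at 1 region, with 84.2, 88.6 and 91.5 normalized tags in dKO and 41.8, 68.2 and 40.3 in control (log2 fold change 0.90, limma adjusted p = 0.00399). Alb is also a hepatocyte marker, and the hepatocyte marker sums given above were lower in dKO, and their part in these values was not tested.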
